A study of Mus musculus with 2 samples.

Results

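The small subunit of the ribosome is built from one ribosomal RNA and a set of proteins, most of them named Rps and a number, and their messenger RNAs are described here in an immunoprecipitation of nucleolin from macrophage nuclei. Members were all genes of the deposited table whose symbol is Rps and a number, with an optional letter a, x, l or y and a further number, plus Rpsa and Fau. They came to 34 of 23924 gene symbols, and the rows of a symbol were summed. The 2 libraries were made from RAW 264.7 cells, a mouse macrophage line, depleted of mRrp6 (a nuclear exosome ribonuclease) and given LPS (80 ng/ml, 12 h), so no cells without depletion or without LPS were compared. The first library held nuclear RNA recovered with an antibody against nucleolin, and the control library is labelled as nuclear RNA of such cells recovered with rabbit IgG. The marker genes given below go against that label in the IgG library. Since it is the only control, no comparison between the libraries could be given without it. Levels and ranks within the nucleolin library do not use it. Which library is the nucleolin one was read from the design text and the column heading, since its own title names only nucleoplasmic RNA. There was 1 library per antibody, so nothing below was tested between antibodies and no p-value is given.

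Ribosomal proteins are made in the cytoplasm and carried to the nucleolus, where they are assembled with the ribosomal RNA precursor into the subunits. Nucleolin is an abundant nucleolar protein that binds this precursor and also binds messenger RNAs. The messenger RNAs of ribosomal proteins are among the most abundant of a growing cell, and they typically open with a tract of pyrimidines at the cap, the 5′ terminal oligopyrimidine (TOP) element, through which their translation is adjusted together.

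The bases around the annotated start were examined for this element, a feature that the choice of the members did not use. RefSeq starts (GRCm38.p6) were matched for 25 of the 34 members, with 30 starts. A run of at least 6 C or T bases that begins with C was searched on the sense strand, from 20 bases before to 40 bases after the start. Such a run was found for 21 of 25 members (84.0%), for 32 of 40 large subunit genes (80.0%) and for 43.1% of all 27025 genes in the promoter table. A gene counted when any of its starts had a run. By start, the share was 73.3% for members, 74.5% for large subunit genes and 39.5% for all genes. The window is wider than the cap site, so a run in it need not be the element. Below are 15 bases before and 15 bases from the start for 8 members in which the run lies inside this stretch, 5′ to 3′ on the gene's strand, with the run in capitals.
Rps10, chr17:27635230-27635259, minus strand: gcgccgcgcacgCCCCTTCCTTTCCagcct
Rps24, chr14:24490663-24490692, plus strand: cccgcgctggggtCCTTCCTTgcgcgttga
Rps6, chr4:86857353-86857382, minus strand: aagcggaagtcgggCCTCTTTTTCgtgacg
Rps9, chr7:3704026-3704055, plus strand: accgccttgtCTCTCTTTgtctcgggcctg
Rps26, chr10:128626492-128626521, minus strand: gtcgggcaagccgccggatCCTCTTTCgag
Rps18, chr17:33955651-33955680, minus strand: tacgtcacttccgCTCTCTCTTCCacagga
Fau, chr19:6057932-6057961, plus strand: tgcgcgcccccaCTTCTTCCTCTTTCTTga
Rps27, chr3:90213634-90213663, minus strand: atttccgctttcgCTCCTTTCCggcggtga
Rps10 and Rps24 were listed with nucleolin only, the next 4 in both libraries, and Fau and Rps27 with IgG only. The run was found in 5 of 5 matched members of the nucleolin library only, in 10 of 13 of both and in 4 of 5 of the IgG library only. A match is a description of these letters and not a site in use.

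Levels are given in FPKM, which divides the fragments of a gene by its transcript length and by the library's total of mapped fragments, and a gene was called listed in a library at 0.1 FPKM or more. Of the 34 members, 31 were listed in at least 1 library: 17 in both, 7 with nucleolin only and 7 with IgG only. Over all 3194 genes that reached 1 FPKM in at least 1 library, 16.8% were listed in both, 37.1% with nucleolin only and 46.0% with IgG only. The members thus stood in both libraries for 54.8% of those compared. Summed over all members, the level was 2341 FPKM in the nucleolin library and 4996 FPKM in the IgG library. The members held 0.647% of the summed FPKM of the nucleolin library and 2.63% of that of the IgG library. The order turned when Rn45s, Lars2, Mir6236 and Mir142b, taken as dominating genes, were left out, to 6.51% with nucleolin and 5.12% with IgG. The IgG remainder of 97649 FPKM still held 21270 FPKM of the gastric and pancreatic markers described below, which were not listed with nucleolin. The order thus depends on which genes are left out and is not read as a difference between the libraries.

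**Figure D1:**
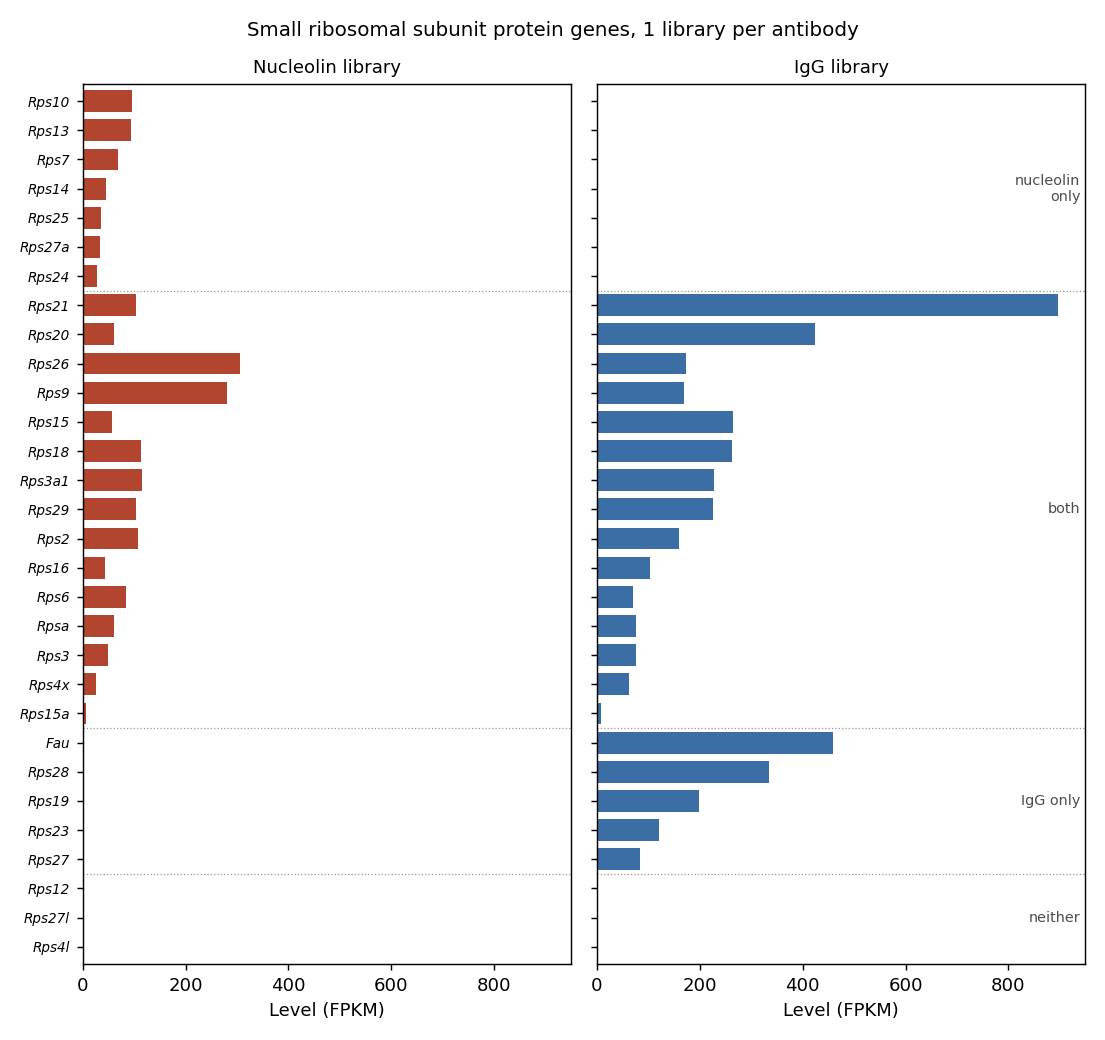
Level in FPKM of 30 of the 34 members in the nucleolin library (left) and the IgG library (right), 1 bar per gene and library, with dotted lines between the members listed in the nucleolin library only, in both, in the IgG library only and in neither. Rps21 has the longest bar, at 896 FPKM in the IgG library, and Rps26 the longest of the nucleolin library, at 305 FPKM.

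Members were high within each library on the FPKM scale. In the nucleolin library 24 of the 1729 listed genes were members, 23 of them above the library's median of 7.91 FPKM and 15 among its 100 highest genes. In the IgG library 24 of 2009 listed genes were members, with 23 above the median of 18.4 FPKM and again 15 among the 100 highest. By the read scale worked out below, 1 read of a 500-base transcript would be at 61.8 FPKM with nucleolin and 142 FPKM with IgG. A high rank of a short transcript can therefore rest on 1 read, and it does not measure abundance in reads. Rps26, a protein at the exit of the messenger RNA channel, was the highest member of the nucleolin library and its 11th gene. Rps21, on the solvent side of the subunit body, was the highest member of the IgG library and its 14th gene.

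The labelled cell type was checked by markers, and the IgG library went against it. Of 14 macrophage markers in the table, 12 were listed with nucleolin and 8 with IgG, summing to 747 and 825 FPKM, with Fcgr3 and Ptprc at 0 in both and Lyz2, Csf1r, Coro1a and Itgam listed with nucleolin only. Of 15 gastric and pancreatic secretory markers none was listed in the nucleolin library, against 12 in the IgG library with a sum of 21270 FPKM, led by Pgc, Clps, Pla2g1b and Tff1. Of 8 epithelial markers none was listed with nucleolin and 5 were listed with IgG, which summed to 448 FPKM (Krt8, Krt19, Krt18, Krt14 and Cdh1). Of the other lists, Col1a1 and Col3a1 of fibroblasts were listed with IgG only and Lck of T cells with nucleolin only, and no B cell or erythroid marker was listed. The part of RNA from such cells in the IgG values of the members was not tested, and fewer cells of a type and less RNA per cell cannot be told apart in such libraries.

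The number of reads behind these values was worked out from genes with 1 transcript row, a span under 8000 bases and more than 1 FPKM. For a gene without an intron, the span on the genome is its transcript length. Introns were not used to choose the genes, and those on the curve below are taken to have none. In each library a group of the genes examined lay on 1 curve, where the level times the span less a constant is the same number, within 0.2%. There were 9 of 294 genes on it in the nucleolin library, with 234 bases subtracted, and 24 of 380 in the IgG library, with 203 bases subtracted. Taken as the level of 1 read, an assumption that the files do not state, the curve gives 60896 mapped fragments for the nucleolin library and 23668 for the IgG library. A transcript of 500 bases with 1 read would be at 61.8 FPKM in the nucleolin library and at 142 FPKM in the IgG library. The same FPKM therefore stands for 2.57 times as many reads of a long transcript in the nucleolin library as in the IgG library.

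**Figure D2:**
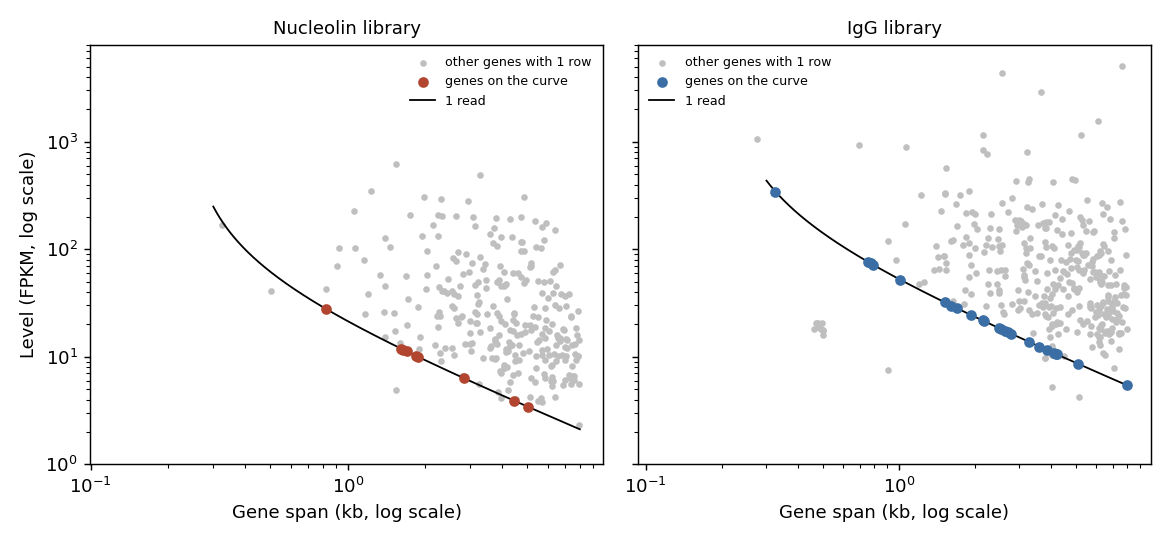
Level in FPKM against the span of the gene in kb, both on log scales, for genes with 1 transcript row in the nucleolin library (left) and the IgG library (right). Coloured points are the 9 and 24 genes on the fitted curve of 1 read (black line), grey points the other genes, of which most lie above the curve.

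For a member listed in both libraries, 2 levels and 1 shared length leave few whole numbers of reads that are possible. The smallest pair was sought in which both read numbers are whole within 0.02 reads, with at most 10 IgG reads and a length no longer than the span of the gene. A pair was found for 17 of 17 members, and 14 of them met it within 0.005 reads. Those that did not were Rps26 (0.0188 reads), Rps29 (0.0123) and Rps21 (0.0121). Among all 369 genes with 1 row that were listed in both libraries, a pair was found for 356 (96.5%). The implied lengths were near those of the processed copies (pseudogenes) named for some members. Rps18 had 524 bases implied and copies with a median of 523 bases, Rps26 had 448 and 436, and Rps2 had 999 and 943. They were far from them for Rps15a (5134 and 449 bases), Rpsa (1861 and 1028) and Rps6 (1394 and 829), and longer than them for Rps29 (390 and 248) and Rps15 (522 and 386.5). The read numbers of these 5 are less certain, and Rps3 has no named copy to set beside its 1878 bases. Rps3a1, Rps9, Rps20 and Rps21 have no named copy either, so their lengths could not be set beside one. Added over the 17 members, the pairs came to 62 nucleolin and 36 IgG reads. By these pairs, those of the 17 described below rest on 1 to 8 reads in the nucleolin library and 1 to 4 in the IgG library. The true number of a member may be a multiple of its pair, and for Rps15a a second pair met the same limit.

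**Figure D3:**
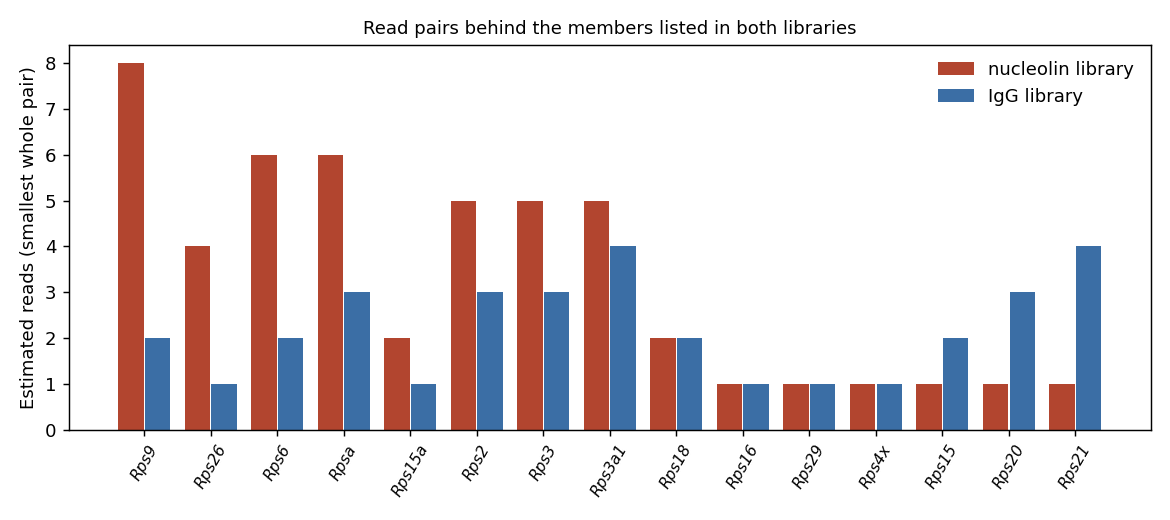
Estimated reads of 15 of the 17 members listed in both libraries, as the smallest whole pair, with the nucleolin library left of the IgG library for each gene, ordered by the ratio of read shares. Rps9 has 8 against 2 reads at the left end and Rps21 has 1 against 4 at the right end.

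Differences are given as log2((nucleolin FPKM + 1) / (IgG FPKM + 1)), a scale that understates the change of low genes, and a gene was called higher or lower when it was 2-fold or more apart. Of the 31 members compared, 7 were higher and 14 lower in the nucleolin library, against 37.8% of all genes compared that were higher and 56.7% that were lower. All 7 of the higher members were at 0 FPKM in the IgG library. Among the 17 members in both, none was higher, 7 were lower and 10 (58.8%) were less than 2-fold apart, while of the 538 genes in both 3.72% were higher and 63.6% were lower. The median log2 ratio of these 17 was -0.59, beside -1.19 over all genes in both. With 1 read set to the same worth in both libraries the median turned to 0.76, and centred on all genes compared, whose median was -1.27, it turned to 0.68. The scale of equal reads leaves out the depth of the libraries, for which FPKM corrects.

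Rps26, named above, had 305 FPKM in the nucleolin library, against 172 FPKM in the IgG library, a log2 ratio of 0.82 on 4 reads and 1 read. Rps9, which lies near the entry of the messenger RNA channel, had 280.2 FPKM in the nucleolin library, against 169 FPKM in the IgG library, a log2 ratio of 0.73 on 8 and 2 reads. Both were higher in the nucleolin library on the FPKM scale and in the share of reads, but by less than 2-fold. For Rps9 the share of reads was 1.55 times that of the IgG library, and its exact 95% (Clopper-Pearson) interval ran from 0.310 to 15.03. Such intervals cover counting error only.

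Rps6, the substrate of the ribosomal S6 kinases, had 84.9 FPKM in the nucleolin library, against 70.9 FPKM in the IgG library. Its log2 ratio was 0.26, on 6 and 2 reads. Rpsa, also known as the laminin receptor, had 60.6 FPKM in the nucleolin library, against 76.4 FPKM in the IgG library, on 6 and 3 reads. Both were close to equal in FPKM.

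Another 4 members were lower in the nucleolin library by less than 2-fold. Rps2, a protein at the entry of the messenger RNA channel, had 107 FPKM in the nucleolin library, against 159 FPKM in the IgG library, on 5 and 3 reads. Rps3, which lies at the entry of the channel and also acts in DNA repair, had 49.9 FPKM in the nucleolin library, against 75.7 FPKM in the IgG library, likewise on 5 and 3 reads. Rps3a1, of the platform, had 116 FPKM in the nucleolin library, against 228 FPKM in the IgG library, on 5 and 4 reads. Although they had more reads in the nucleolin library, these 3 had the smaller share of its mapped fragments. Rps15a, a protein of the body, was the lowest listed member of both libraries, at 6.70 FPKM in the nucleolin library and 8.57 FPKM in the IgG library. At 449 bases, the median of its 8 named copies, these levels would be 0.0877 and 0.0499 of a read. How reads with several alignments were shared between copies is not given in the sources used here.

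Of the 7 members listed in both libraries and called lower with nucleolin, 4 had the same number of reads in each. Rps18, a head protein, had 113 FPKM in the nucleolin library, against 263 FPKM in the IgG library, with 2 reads in each. Rps29, a small zinc-binding head protein, had 104 FPKM in the nucleolin library, against 225 FPKM in the IgG library, with 1 read in each. Rps16, with a tail that reaches the decoding site, had 43.1 FPKM in the nucleolin library, against 102 FPKM in the IgG library, and Rps4x, encoded on the X chromosome, was at 25.6 and 62.7 FPKM, each with 1 read in either library. Their log2 ratios lay between -1.26 and -1.11, near the -1.20 that equal reads give for a transcript of 500 bases. Both other scales move the members listed in both libraries by a similar amount, so that equal reads come to lie near 0. The scale of equal reads leaves the 7 members listed with IgG only where they were. For 1 read in each, the interval of the ratio of read shares ran from 0.00495 to 30.5.

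The other 3 had fewer reads in the nucleolin library. Rps21 had 103 FPKM in the nucleolin library, against 896 FPKM in the IgG library, a log2 ratio of -3.11 on 1 and 4 reads. Its share of reads was 0.0972 times that of the IgG library, with an interval from 0.00197 to 0.982, the only interval of the 17 that did not include 1. Over all 356 genes with a pair, 3.37% of the intervals did not include 1, and 95% intervals leave out the true value in some cases by construction. The Rps21 pair deviated by 0.0121 reads and so missed the limit of 0.005. Rps20, a head protein, had 61.1 FPKM in the nucleolin library, against 423 FPKM in the IgG library, on 1 and 3 reads, and its interval ran from 0.00247 to 1.61. Rps15, a head protein near the decoding site, had 56.9 FPKM in the nucleolin library, against 265 FPKM in the IgG library, on 1 and 2 reads. Their implied lengths of 391, 502 and 522 bases are short, and at such lengths 1 read has a high FPKM. Pooled over the 17 members, the nucleolin library had 10.2 reads per 10000 mapped fragments and the IgG library 15.2, a ratio of 0.669 with an interval from 0.437 to 1.04. Over all genes with 1 row listed in both that ratio was 0.594. Only genes with at least 1 read in each library enter these pools, and members listed in 1 library are left out. The IgG library is the shallower, so 1 read in each already gives a ratio of 0.389. The intervals do not cover this choice, so a pooled ratio below 1 is not read as a lower level with nucleolin.

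The 7 members listed in the nucleolin library only ranged from 27.2 to 96.8 FPKM there and were listed at 0 in the IgG library. Rps10, a head protein mutated in Diamond-Blackfan anaemia in humans, was at 96.8 FPKM, and Rps13, a core protein that binds early to the ribosomal RNA, at 94.4 FPKM. Rps7, of the body, was at 67.8 FPKM, and Rps14, a platform protein needed for maturation of the small subunit RNA, at 45.2 FPKM. These 4 levels were below the library's levels of Rps26 and Rps9. Rps25, a head protein used by viral internal ribosome entry sites, was at 36.5 FPKM. Rps27a, which is made as a fusion to ubiquitin, was at 33.4 FPKM, and Rps24, another protein mutated in Diamond-Blackfan anaemia, at 27.2 FPKM, almost all of it in 1 of its 3 transcript rows. At the median length of their named copies Rps24, Rps25 and Rps27a would be at 0.452, 0.575 and 0.628 of a read, so whole reads are not assured for them. If the values of all 7 stand for 1 read, the same FPKM would be 0.409 to 0.461 of a read in the IgG library, and for 2 reads 0.798 to 0.849. At this depth a level of 0 in the IgG library is thus not distinguishable from an equal level for members with 1 or 2 nucleolin reads.

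The 7 members listed in the IgG library only ranged from 84.0 to 459 FPKM there and were listed at 0 in the nucleolin library. Fau, whose product is a ubiquitin-like peptide fused to a small subunit protein, was at 459 FPKM, almost all of it in 1 of 3 rows. Rps28, a head protein at the exit of the messenger RNA channel, was at 335 FPKM. Of all members in the IgG library, Rps21 alone stood above Fau, and Rps20 lay between Fau and Rps28. Rps19, the gene mutated most often in Diamond-Blackfan anaemia, was at 198 FPKM. Rps23, a protein of the decoding centre, was at 120 FPKM, and Rps27, a zinc-binding protein, at 84.0 FPKM. At the median length of their named copies Rps27 would be at 0.258 of a read and Rps23 at 0.853, so whole reads are not assured for them. If these values stand for 1 read, the same FPKM in the nucleolin library would be 1.70 reads for Fau and up to 2.41 for Rps27. For 2 reads it would be at least 4.27, so a level of 0 in the nucleolin library is farther from an equal level than the reverse case. No interval was worked out for these members. A 0 in the nucleolin library beside 1 or 2 IgG reads was thus not shown to differ from an equal level.

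Only Rps12, Rps27l and Rps4l were listed at 0 in both libraries. Rps12 encodes a head protein, Rps27l a variant of Rps27 that is induced by p53, and Rps4l is annotated as a transcribed pseudogene. Named processed copies were counted in the RefSeq table, where 25 of 34 members had at least 1 and 120 were named in all. Rps12 had the most, 23. Rps19 had 13 and was listed in the IgG library only, and Rps2 had 12 and was listed in both.

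Members were also set by their place in the subunit. Of 13 head members compared, 3 were higher and 8 lower with nucleolin than with IgG, and of 18 members of the body and platform 4 were higher and 6 lower. Over all genes compared, 37.8% were higher and 56.7% lower. Over those listed in both, the median log2 ratio was -1.21 for 7 head genes and -0.32 for 10 genes of the body and platform, against -1.19 over all genes. The summed level of the head genes was 725 FPKM in the nucleolin library and 2122 FPKM in the IgG library, and that of the body and platform was 1617 and 2875 FPKM. By family, 11 of 15 members with a bacterial counterpart were listed in both libraries, against 6 of the 16 compared without one. The share over all genes compared was 16.8%. With 1 library per antibody these differences could not be tested.

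Of the 52 large subunit genes, 37 were compared, with 5 higher, 16 lower and 24 listed in both libraries. Of all genes compared, 37.8% were higher, 56.7% lower and 16.8% listed in both. The median log2 ratio over those in both was -0.31, beside -0.59 for the small subunit, a difference of -0.28 that no replicate measures. Their pooled share of reads was 0.719 times that of the IgG library (interval 0.509 to 1.02), beside 0.669 for the small subunit genes. Each pool holds only genes listed in both libraries, with the limit given above. Rplp1, of the stalk, was the highest large subunit gene of the nucleolin library, at 350 FPKM there and 318 FPKM in the IgG library. Rpl41, the smallest ribosomal protein, had 228 FPKM in the nucleolin library, against 171 FPKM in the IgG library, and Rpl8 had 209 and 128 FPKM. Rpl32, among the highest of the IgG library, was listed at 0 in the nucleolin library, against 421 FPKM in the IgG library.

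**Figure D4:**
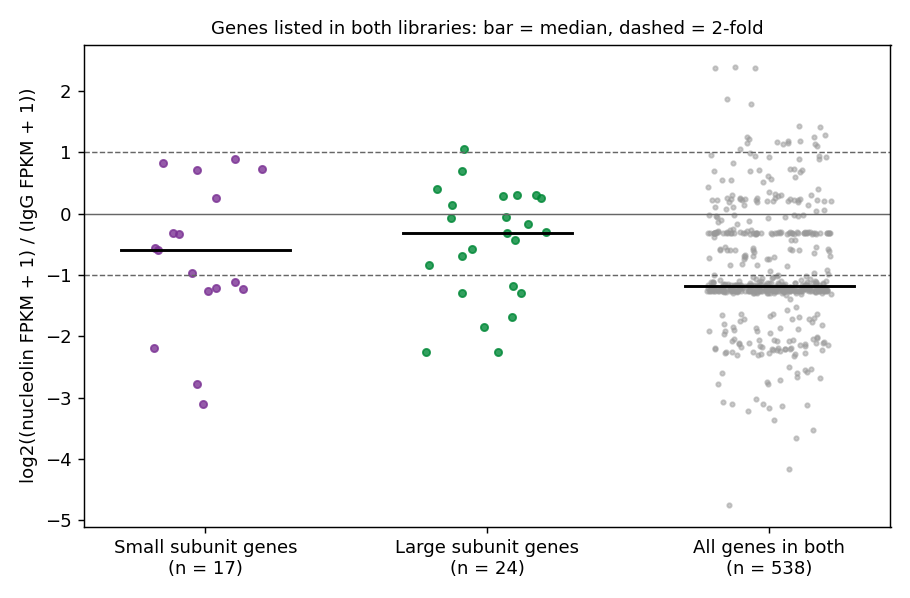
Log2 ratio of nucleolin over IgG, with 1 FPKM added to each level, for the 17 small subunit genes, 24 large subunit genes and all 538 genes listed in both libraries, 1 point per gene, with the median as a bar and 2-fold as dashed lines. The medians are -0.59, -0.31 and -1.19, and the densest band of all genes lies near the ratio of equal reads.

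A list of other genes of the pathway, mostly factors that assemble the small subunit, held 62 genes of the table. It also holds Rack1, a scaffold protein of the subunit, Larp1 and Larp4, which bind messenger RNAs, and Rpf2 and Nvl, which act on the large subunit. Of these, 19 were compared, and 13 were higher with nucleolin, Larp1 among them, and 4 lower, beside the 37.8% and 56.7% of all genes. Of the 19, 12 were listed with nucleolin only and 4 with IgG only, beside 37.1% and 46.0% of all genes compared. The 12 ranged from 3.82 to 17.0 FPKM in the nucleolin library, where 1 read of a 1000-base transcript would be at 21.4 FPKM. Their read numbers were not worked out, and at 1 or 2 reads a 0 with IgG is not distinguishable from an equal level. Gnb2l1, the gene of Rack1, which sits on the subunit head, had 177 FPKM in the nucleolin library, against 80.4 FPKM in the IgG library, on 11 and 2 reads. Its log2 ratio of 1.13 was above that of every small subunit gene in both libraries, and the interval of its ratio of read shares of 2.14 ran from 0.467 to 19.8. Fbl, the methyltransferase fibrillarin, had 35.5 FPKM in the nucleolin library, against 44.2 FPKM in the IgG library. These 2 were the highest of the list in either library. Next came Ngdn in the nucleolin library, at 17.0 FPKM and 0 with IgG, and Wdr36 in the IgG library, at 0 with nucleolin and 15.4 FPKM with IgG.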

How the data were processed

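RNA immunoprecipitated with an antibody against nucleolin or with rabbit IgG was sequenced, 1 library each. The authors deposited FPKM values for 33529 transcript rows, per the file headers. FastQC 0.10.0, Trimmomatic 0.32 and the mm10 build were used, per the submitters' processing notes. The aligner, the quantifier, strand and the sharing of reads with several alignments were not given in the sources used here, so values of genes with near-identical copies are uncertain. Rows were summed by symbol, and 56 rows without one were left out (0.0794% of the summed FPKM of the nucleolin library and 0.0364% of that of the IgG library). Genes at 1 FPKM or more in at least 1 library were compared, with a pseudocount of 1. All 34 members matched RefSeq GRCm38.p6 by gene identifier. Read numbers are estimates from genes that span under 8000 bases, as the report describes. Scripts ran under scipy 1.17.1, numpy 2.4.6, pandas 2.3.3 and Python 3.11.15. By rule, every member is named, with the 3 highest large subunit and assembly genes of each library. Of these, 4 members and 1 large subunit gene are not reported here, though counts, sums and medians include them. Marker genes are named in part. Members and lists were chosen with earlier results of these data known. Alternatives changed the pseudocount, filter, scale and row rule.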

Additional observations from a re-analysis of the deposited data

Results flagged for a closer look

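Rps15a-ps6, a transcribed pseudogene of Rps15a that is no member, was used in no comparison of the members. It had 27.8 FPKM in the nucleolin library and was listed at 0 in the IgG library. It counts among all genes compared. It spans 824 bases on chromosome 11 from 6172508 to 6173331. Being 1 of the 9 genes that set the nucleolin curve, it is taken as 1 read, and its place there says nothing more about its read number. At 1 read, a level of 0 in the IgG library is not distinguishable from an equal level. Rps15a-ps4 and Rps19-ps3, the other rows of the table named as copies of members, were listed at 0 in both libraries.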

How the results depend on the processing

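The scale decided the direction of the summary values. Centred on all genes compared, 12 members were higher and 9 lower, the median log2 ratio was 0.68 over members compared and 0.68 over those in both, and the ratio of the summed level was 0.17, beside -1.09 as deposited. With 1 read set to the same worth, 13 were higher and 9 lower, both medians were 0.76 and the summed ratio was 0.27. That scale undoes the correction of FPKM for depth, at 60896 mapped fragments with nucleolin and 23668 with IgG. The members that turned were Rps16 (0.037 centred and 0.11 by reads), Rps18 (0.057 and 0.15), Rps29 (0.16 and 0.25) and Rps4x (0.0055 and 0.068), which have equal reads in both libraries and so come to lie near 0 by construction. Pseudocounts of 0.1 and 5, a filter of 10 FPKM or none, the highest row per symbol and leaving out copied rows kept the counts at 7 higher and 14 lower within 1.5 times and the fold behind each summary value within a factor of 1.5. The filter of 10 FPKM, which drops Rps15a, took the median to -0.78 against -0.59, and with it the small minus large median to -0.47 against -0.28. The pseudocounts moved the 14 members at 0 in 1 library by more than that. The rule for read pairs was chosen after seeing the data. A rule tried first, the pair that agrees best within 1.5%, gave 17 members with 85 nucleolin and 45 IgG reads (pooled ratio 0.734), and it was replaced because it gave 2 members larger pairs with long implied lengths, such as 7 and 6 reads on Rps29; the other members kept their pairs. Of the other settings added after seeing the data, read pairs within 0.005 reads held for 14 members (pooled ratio 0.726), and pairs with implied lengths of at most 1100 bases for 13 (0.619). No paired analysis was possible because there is 1 library per antibody. Depth limits every member. At 1 to 8 estimated reads in those described that are listed in both libraries, differences of several fold lie within counting error. For the 14 members at 0 in 1 library, read numbers were not worked out.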
